A study of Mus musculus with 2 samples.

Results

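The genes described here are a fixed list of microglia genes, sorted by role into homeostatic surface and secreted proteins, lineage transcription factors, immune signalling proteins, receptors for debris and lipids, disease-associated lysosomal and secreted proteins, and border macrophage genes. The list names 37 genes and was matched by gene symbol, 36 of the 27998 genes in both count matrices carried a listed symbol, and the remaining gene was not analysed here. The data were single-nucleus RNA sequencing libraries of frozen whole mouse brain, made on the 10x Chromium platform and counted as unique molecular identifiers (UMIs, one per captured RNA molecule) against a pre-mRNA reference, so that reads from introns counted too. The ShamRT-28d library came from untreated, mock-irradiated C57BL/6 mice, and the WBRT-28d library came from C57BL/6 mice 28 days after whole-brain radiotherapy of 10 Gy, given as 5 fractions of 2 Gy. Each library pooled the brains of 2 mice, the study's methods describe wild-type C57BL/6J females bought at a few weeks of age, and no label tied a nucleus to a mouse. With 1 library per condition nothing measured the spread between mice, so no difference below was tested, and every interval is an exact 95% interval that covers counting error only.

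Microglia are the resident macrophages of the brain parenchyma. In the resting brain they hold a homeostatic program of purinergic and other surface receptors under the lineage factors PU.1, IRF8, RUNX1 and SALL1. Around plaques, dying cells or damaged myelin they turn that program down and turn on lysosomal, lipid-handling and secreted genes. The full disease-associated state requires the receptor TREM2, which signals through its adaptor TYROBP. Border macrophages are a separate lineage of the meninges, the perivascular spaces and the choroid plexus, and are told apart by scavenger receptors such as CD206 (Mrc1) and CD163.

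PU.1 binds sites with an ETS core. The letters GGAAGT, which read from the opposite strand are ACTTCC, were looked for on both strands. The search covered the 250 bases before each start listed for a gene in the RefSeq promoter table of GRCm38.p6. A gene with several listed starts counted as holding the letters when any of them did. Some listed starts lay inside the gene's span in GENCODE M21, among them those matched for F13a1, Sall1 and Cd63. Promoters of 30 of the 36 genes were matched by symbol, and 14 of the 30 held the letters (46.7%), against 6008 of 27025 genes in the table (22.2%). The holders came from every group of the list except the receptors for debris and lipids, and were P2ry12, Siglech and Fcrls of the homeostatic genes, Sall1, the signalling genes Inpp5d, Dock8, Apbb1ip and Ptprc, the secreted and lysosomal genes Cst7, Spp1 and Cd63, and the border macrophage genes Mrc1, F13a1 and Pf4. A match is a run of letters and not a measured binding site. The promoters of the neighbouring purinergic receptor genes P2ry12 (chr3:59262986-59263235, minus strand) and P2ry13 (chr3:59210883-59211132, minus strand) and of the border macrophage chemokine gene Pf4 (chr5:90772185-90772434, plus strand) are printed 5′ to 3′ because these 3 genes recur below, with the matched letters in capitals.
P2ry12: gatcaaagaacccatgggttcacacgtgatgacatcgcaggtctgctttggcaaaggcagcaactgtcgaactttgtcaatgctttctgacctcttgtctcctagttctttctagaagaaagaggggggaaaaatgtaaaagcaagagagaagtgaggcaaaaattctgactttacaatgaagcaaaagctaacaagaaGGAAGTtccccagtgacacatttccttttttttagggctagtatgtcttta
P2ry13: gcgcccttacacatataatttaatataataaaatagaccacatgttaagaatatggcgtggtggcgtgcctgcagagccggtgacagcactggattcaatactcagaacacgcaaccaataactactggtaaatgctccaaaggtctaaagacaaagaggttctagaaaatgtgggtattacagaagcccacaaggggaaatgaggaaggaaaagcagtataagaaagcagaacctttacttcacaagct
Pf4: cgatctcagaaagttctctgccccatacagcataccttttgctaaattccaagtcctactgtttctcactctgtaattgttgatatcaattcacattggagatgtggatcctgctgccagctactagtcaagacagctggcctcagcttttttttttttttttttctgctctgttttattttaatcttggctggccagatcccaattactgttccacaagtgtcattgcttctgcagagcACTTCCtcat
P2ry12 and Pf4 held 1 match each, and P2ry13 held 0.

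The kept nuclei numbered 10024 in ShamRT-28d and 13664 in WBRT-28d, with 39039852 and 53456693 UMIs and median depths of 2312.5 and 2461 UMIs per nucleus, and the libraries shared 43 cell barcodes. Nuclei were clustered without the listed genes and the clusters were named from other markers. The microglia-like class carried 8 of 8 gate markers, among them Csf1r, Cx3cr1, C1qa, Laptm5 and Itgam, and was led by Inpp5d, Siglech, Ikzf1, Dock8 and Selplg, so the label held. It took 547 of 10024 nuclei in ShamRT-28d (5.46%, Clopper-Pearson interval 5.02 to 5.92) and 692 of 13664 in WBRT-28d (5.06%, 4.70 to 5.45), and the intervals of these shares overlapped. Adding the unnamed clusters that carried microglia markers gave 6.18% and 6.29%. The border macrophage-like class, with 8 of 8 of its own markers, took 54 nuclei (0.539%) and 88 nuclei (0.644%).

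Levels below are UMIs of a gene per 1000000 UMIs of the class in that library (CPM). A listed gene counts as measured in a class with at least 20 UMIs over both libraries, and as past the limit when its WBRT-28d level was at least 1.5-fold above or below its ShamRT-28d level. RNA set free from broken cells can enter any droplet, and its amount was estimated here from neuron genes. Transcripts of 8 neuron genes stood in the microglia-like nuclei at 10.7% of their level in the whole library in ShamRT-28d and at 23.9% in WBRT-28d, and the median mitochondrial share was 0.144% and 0.265%. Free RNA, scaled on the neuron genes, was subtracted, and the levels left were rescaled to the RNA that remained. The rescaling was larger in WBRT-28d and raised every log2 difference by the same amount, whatever the gene. The log2 difference of all 28 genes measured in microglia-like nuclei moved upward. For P2ry12 the part taken off was 0.609% of its level in ShamRT-28d and 1.96% in WBRT-28d, so its shift came mostly from the rescaling. The subtracted value is given below for the listed genes whose direction or side of the limit it changed.

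In microglia-like nuclei, 28 of the 36 genes were measured, 26 of them stood lower in WBRT-28d than in ShamRT-28d, and the median difference was -0.39 on the log2 scale. Past the limit, 8 genes were lower (P2ry12, P2ry13, Gpr34, Olfml3, Ly86, Apbb1ip, Trem2 and Cd68) and 1 was higher (Mrc1). Over all 10534 measured genes of these nuclei 9.21% were lower past the limit, 18.1% were higher, and the median was 0.03. Among the 1016 genes that the class held at 5-fold or more over the rest of the brain nuclei, 26.0% were lower, 2.07% were higher, and the median was -0.32. The listed genes therefore stood below the average gene of these nuclei and close to the other genes enriched in microglia, and the 8 gate markers stood lower still, at a median of -0.58. With free RNA subtracted, 2 listed genes (Apbb1ip and Ly86) remained past the limit on the low side.

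**Figure D1:**
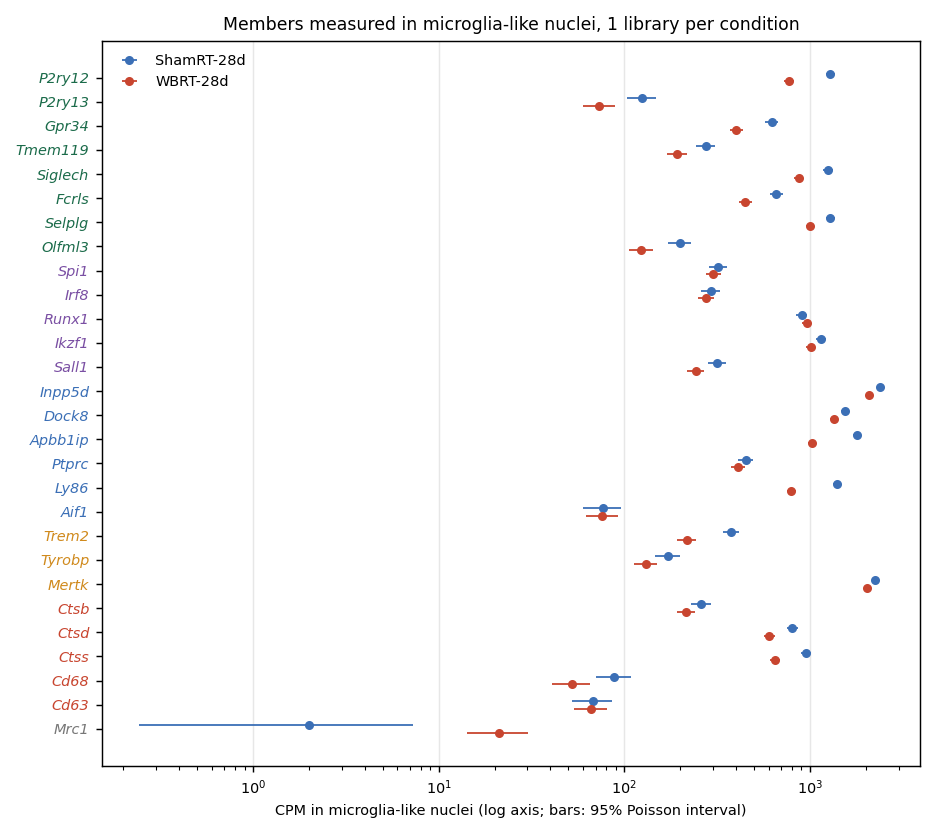
Level in microglia-like nuclei, in CPM on a log axis, of the 28 measured genes, with blue points for ShamRT-28d and red points for the irradiated library, and exact 95% Poisson bars for counting error only. P2ry12 went from 1289 to 771 CPM, while Runx1 (901 and 959 CPM) and Aif1 (76.5 and 76.2 CPM) had overlapping bars.

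The homeostatic surface and secreted genes were lower in WBRT-28d in all 8 of 8 cases, from -0.75 to -0.36 on the log2 scale with a median of -0.59, and 4 of the 8 were past the limit. P2ry12, the ADP receptor that steers microglial processes toward injury and a marker of the resting state (chr3:59216272-59262871, minus strand), had 1281 UMIs in ShamRT-28d and 1093 in WBRT-28d. Its level was 1289 CPM (1220 to 1362) against 771 CPM (726 to 818), a ratio of 0.598 (0.551 to 0.649), and the intervals of the levels did not overlap. P2ry13, the related receptor next to it (chr3:59207892-59210882), differed in like proportion, from 124 CPM (103 to 148) to 73.4 CPM (59.96 to 88.9), a ratio of 0.593 (0.452 to 0.776), or -0.54 on the log2 scale with free RNA subtracted. These neighbours had near-identical ratios. The promoter of P2ry12 held the ETS letters and that of P2ry13 did not, and whether the letters bear on the ratios was not tested.

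Gpr34, a lysophospholipid receptor on chromosome X, was at 623 CPM in ShamRT-28d and 402 CPM in WBRT-28d (ratio 0.644, 0.574 to 0.723). Olfml3, a secreted matrix glycoprotein, was at 199 and 124 CPM (0.620, 0.503 to 0.763). Fcrls, an Fc receptor-like scavenger molecule, was at 659 and 449 CPM (0.682, 0.610 to 0.761). For all 3 the interval of the ratio excluded 1. Siglech, a sialic acid-binding lectin of microglia, was at 1251 and 869 CPM (0.695, 0.642 to 0.752). Tmem119, a microglia-selective membrane protein, had 273 UMIs in each library and was at 275 and 193 CPM (0.701, 0.591 to 0.832). Selplg, the P-selectin ligand, lies close to Tmem119 on chromosome 5 and had the smallest difference of the 8, with 1284 and 1000 CPM (0.779, 0.722 to 0.841). With free RNA subtracted the group median was -0.38, P2ry12 was at -0.53, Gpr34 at -0.42 and Olfml3 at -0.48, so the direction held for the group and none of the 8 stayed past the limit.

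The same pattern was seen in single nuclei at equal depth. Each nucleus was thinned to 1000 UMIs, which left out 50 of the 547 ShamRT-28d nuclei and 0 of the 692 WBRT-28d nuclei, and the UMIs of the 8 homeostatic genes were added up. Thinning made the total UMIs equal but not the share of RNA from other cells, and no free RNA was subtracted from these counts. The median was 5 UMIs per nucleus in ShamRT-28d (quartiles 4 and 8) and 4 in WBRT-28d (quartiles 2 and 5), with means of 5.77 and 3.87. Nuclei with 10 or more such UMIs made up 9.66% in ShamRT-28d and 1.59% in WBRT-28d, and nuclei with 0 made up 0.805% and 4.34%. The whole distribution sat lower in WBRT-28d, with no separate peak at 0. P2ry12 alone was seen in 79.9% of ShamRT-28d and 67.2% of WBRT-28d nuclei (66.9% and 48.7% after thinning), while the neuron-like nuclei, which should lack it, gave 14.0% and 11.1% (3.99% and 3.24% after thinning) at median depths of 2633 and 2832 UMIs, against 1652 and 1872 UMIs in microglia-like nuclei.

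**Figure D2:**
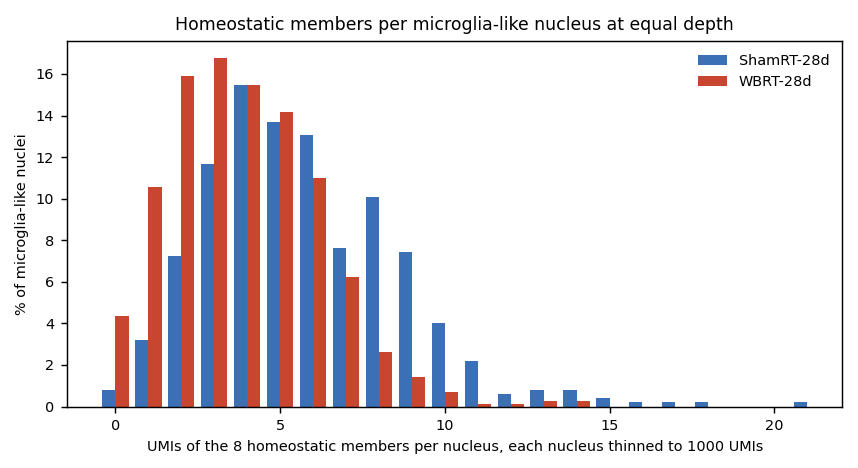
Share of microglia-like nuclei (percent, vertical axis) by the number of UMIs of the 8 homeostatic genes in each nucleus after thinning to 1000 UMIs (horizontal axis), with 497 sham and 692 irradiated nuclei plotted. The median lay at 5 UMIs in ShamRT-28d and at 4 in WBRT-28d, and the highest nucleus had 21 and 14, all without subtraction of free RNA.

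The lineage transcription factors differed less than the homeostatic genes. None of the 5 was past the limit, and their median was -0.09, which became 0.13 with free RNA subtracted, so the group showed no direction. Spi1, which encodes the macrophage master factor PU.1, was at 320 CPM (286 to 357) in ShamRT-28d and 302 CPM (274 to 332) in WBRT-28d, a ratio of 0.944 (0.814 to 1.09), which free RNA subtraction turned to 0.13 on the log2 scale. Its partner Irf8 was at 292 and 275 CPM (0.943, 0.808 to 1.10), and turned to 0.13 as well. Runx1, a factor of the yolk-sac macrophage lineage, was the only one of the 5 above 1, with 901 CPM (843 to 962) and 959 CPM (909 to 1011), a ratio of 1.06 (0.978 to 1.16), or 0.31 on the log2 scale after subtraction. For these 3 the intervals of the ratio before subtraction included 1, and each excluded a 1.5-fold difference in either direction. Ikzf1, a zinc-finger factor of blood lineages, was at 1147 and 1007 CPM (0.877, 0.811 to 0.949), and turned to 0.03 on the log2 scale with free RNA subtracted. Sall1, the factor that sets microglia apart from other macrophages, was the lowest of the 5 at 316 CPM (282 to 353) and 243 CPM (218 to 270), a ratio of 0.768 (0.657 to 0.898).

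The immune signalling genes split. Apbb1ip, the RIAM adaptor that links Rap1 to integrins (chr2:22774094-22875653, plus strand), had 1784 and 1452 UMIs, or 1796 CPM (1713 to 1881) against 1024 CPM (973 to 1079), a ratio of 0.571 (0.532 to 0.612). Ly86, which encodes the MD-1 partner of the Toll-like protein RP105 (chr13:37345208-37419036, plus strand), had 1390 and 1127 UMIs, or 1399 CPM (1326 to 1475) against 795 CPM (749 to 843), a ratio of 0.568 (0.525 to 0.615). These genes had the lowest ratios of the list that rest on more than 1000 UMIs in each library, and with free RNA subtracted stood at -0.59 and -0.60 on the log2 scale. The other 4 were within the limit. Inpp5d, the lipid phosphatase SHIP1 that restrains receptor signals, was at 2383 and 2075 CPM (0.871, 0.825 to 0.919), and Dock8, a guanine exchange factor for Cdc42, was at 1550 and 1342 CPM (0.866, 0.809 to 0.927). Both turned to just above 0 with free RNA subtracted (0.02 and 0.01). Ptprc, the leukocyte antigen CD45, was at 450 and 410 CPM (0.911, 0.804 to 1.03), and turned to 0.08 on the log2 scale with free RNA subtracted. Aif1, whose product IBA1 is the usual stain for microglia, rested on 76 and 108 UMIs and was at 76.5 and 76.2 CPM (0.996, 0.736 to 1.35), or 0.21 on the log2 scale after subtraction.

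In thinned nuclei the same genes differed by share. Ly86 was detected in 67.7% of ShamRT-28d and 46.7% of WBRT-28d nuclei, Apbb1ip in 77.3% and 59.1%, and Trem2 in 31.0% and 20.02%. Inpp5d was detected in 86.3% and 82.5%, and Runx1 in 52.6% and 54.0%.

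**Figure D3:**
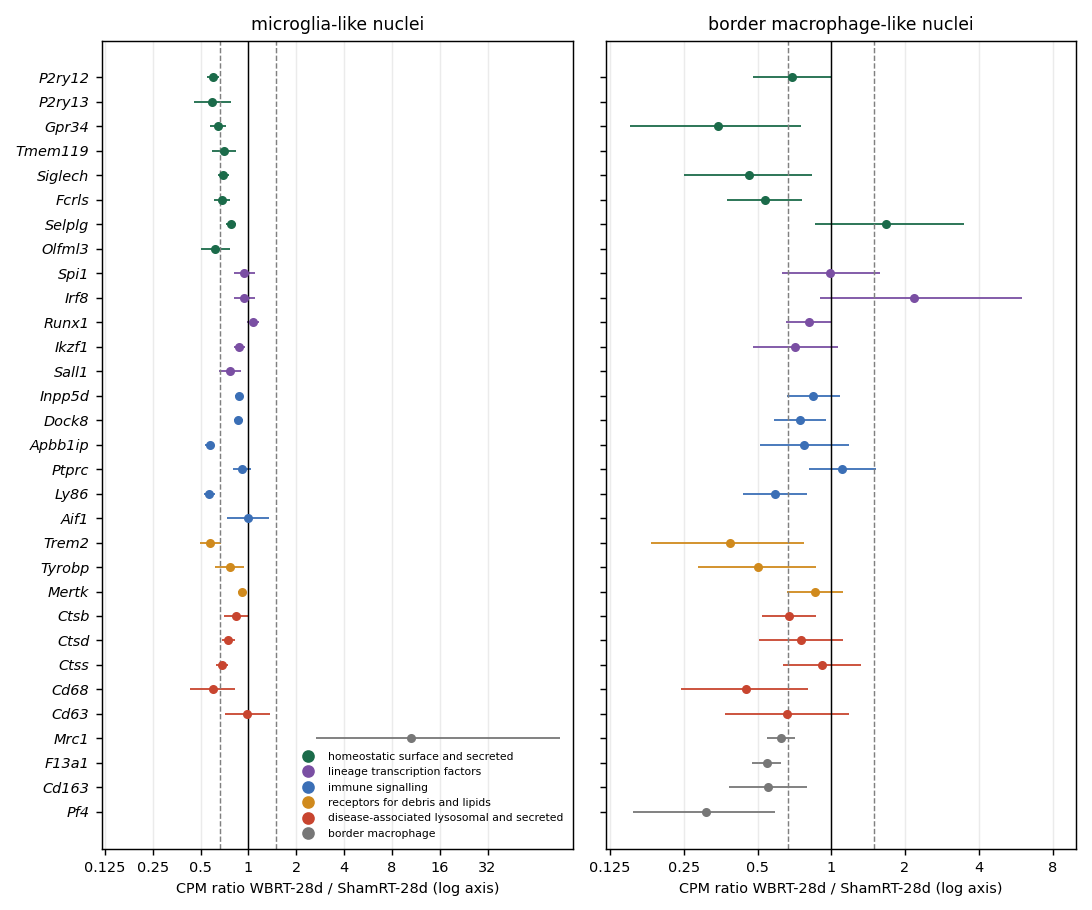
Ratio of WBRT-28d to ShamRT-28d level on a log axis with exact 95% counting intervals, for the measured genes in microglia-like nuclei (left) and border macrophage-like nuclei (right), coloured by role, with dashed lines at 1.5-fold either way and a solid line at 1. All 8 homeostatic genes lay below 1 in microglia-like nuclei and all 4 border macrophage genes lay below the lower dashed line in border macrophage-like nuclei before any subtraction, while the transcription factors lay within the dashed lines in microglia-like nuclei, with a group median that changed sign when free RNA was subtracted.

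Of the receptors for debris and lipids, Trem2, the lipid-sensing receptor needed for the full disease-associated state (chr17:48346401-48354147, plus strand), had 373 and 307 UMIs, or 375 CPM (338 to 416) against 217 CPM (193 to 242), a ratio of 0.577 (0.495 to 0.673). Subtraction of free RNA left it at -0.58 on the log2 scale, just inside the limit. Its signalling adaptor Tyrobp was at 171 and 130 CPM (0.763, 0.616 to 0.945). The TAM receptor Mertk, which takes up dying cells, was at 2239 CPM (2147 to 2335) and 2039 CPM (1965 to 2115), and turned to 0.07 on the log2 scale with free RNA subtracted. The other TAM receptor, Axl, had 2 UMIs in 2 nuclei of ShamRT-28d and 13 UMIs in 11 nuclei of WBRT-28d, too few to count as measured. Its ratio was 4.56 with an interval from 1.03 to 41.6. None of the 4 was measured as higher.

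The disease-associated lysosomal and secreted genes that counted as measured were not higher in WBRT-28d. Of 9 analysed, 5 were measured, all 5 stood below 1 with a median of -0.42, and 1 was past the limit. Spp1, described below, had too few UMIs to count as measured and stood higher in WBRT-28d. Cd68, the lysosomal glycoprotein used as a stain for phagocytic microglia, was at 87.6 CPM (70.1 to 108) and 52.2 CPM (41.0 to 65.6), a ratio of 0.596 (0.431 to 0.822), and came inside the limit at -0.54 on the log2 scale with free RNA subtracted. Ctss, a cysteine protease, was at 950 and 648 CPM (0.682, 0.622 to 0.747), and the aspartic protease Ctsd was at 805 and 603 CPM (0.748, 0.679 to 0.825). Ctsb, a lysosomal protease induced in disease-associated microglia, was at 259 and 216 CPM (0.835, 0.705 to 0.989). Cd63, a tetraspanin of late endosomes, was at 67.4 and 66.3 CPM (0.984, 0.711 to 1.37), of which free RNA would give 5.51% in ShamRT-28d and 12.98% in WBRT-28d, and it turned to 0.09 on the log2 scale after subtraction.

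The genes that are switched on most sharply in disease-associated microglia were close to absent. Spp1, which encodes osteopontin, had 0 UMIs in ShamRT-28d and 7 UMIs in 3 nuclei of WBRT-28d, and was at least 1.64-fold higher in WBRT-28d against a floor of 3 counts in ShamRT-28d. The cystatin gene Cst7 had 1 UMI in each library, the galectin gene Lgals3 had 0 and 1, and Gpnmb, a lysosomal glycoprotein gene, had 0 in both. A UMI of any of Axl, Cst7, Gpnmb, Lgals3 and Spp1 was seen in 3 of 547 sham nuclei and 15 of 692 irradiated ones, and 1 nucleus of WBRT-28d held UMIs of 2 of these genes. At this depth a group of microglia holding the full disease-associated program was not detectable in either library. Over the receptors and the lysosomal and secreted genes together, 8 of the 13 were measured, 2 were lower past the limit, 0 were higher, and the median was -0.40. Among the 1016 genes enriched in the class 26.0% were lower and 2.07% were higher, with a median of -0.32, so these genes stood close to that share.

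Longer lists for both programs were counted in the same way, beside 9.21% lower and 18.1% higher over all measured genes. Among the genes enriched in the class the shares were 26.0% and 2.07%. Of 24 further homeostatic genes, all measured, 4 were lower past the limit, 0 were higher, and the median was -0.35, or -0.14 with free RNA subtracted. The TGF-beta receptor gene Tgfbr1 was at 2873 and 2472 CPM (0.861, 0.819 to 0.905), and the MEF2 factors that act in the homeostatic program were at 2237 and 1710 CPM for Mef2a (0.764, 0.721 to 0.810) and at 2051 and 1702 CPM for Mef2c (0.830, 0.782 to 0.881). The fructose transporter gene Slc2a5 had the lowest ratio, 187 against 100.2 CPM (0.535, 0.427 to 0.669). The inhibitory lectin gene Cd33 (0.577, 0.484 to 0.686) and the adhesion receptor gene Adgrg1 (0.660, 0.495 to 0.880) were past the limit too.

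Of 28 further disease-associated genes, 20 were measured, 6 were lower past the limit, 2 were higher, and the median was -0.23, against -0.32 for the genes enriched in the class. Fth1, the ferritin heavy chain, was past the limit at 168 and 287 CPM (1.71, 1.42 to 2.06). The other gene higher past the limit rested on 6 and 15 UMIs (1.75, 0.643 to 5.51), with an interval that included 1. Apoe, the lipid carrier that is induced with the disease-associated state, was within the limit at 291 and 394 CPM (1.36, 1.17 to 1.57). Apoe and Fth1 are abundant elsewhere in the brain. Free RNA would give 12.6% of the Apoe level in ShamRT-28d and 25.7% in WBRT-28d, and 9.18% and 16.3% of the Fth1 level. Their part in the differences was not tested. On the other side, the tetraspanin gene Cd9 was at 303 and 176 CPM (0.580, 0.488 to 0.688), and the cathepsin genes Ctsz (0.603, 0.480 to 0.756) and Ctsl (0.630, 0.505 to 0.785) were lower. Mitf, a driver of lysosomal genes, was at 504 and 485 CPM.

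Markers of other cell types in the microglia-like nuclei moved with the condition as well. All 8 neuron genes were higher in WBRT-28d past the limit, with a median of 1.10 on the log2 scale, and 2 of 7 myelin genes were higher. The 7 oligodendrocyte markers summed to 965 and 1107 CPM and the 6 astrocyte markers to 508 and 724 CPM. Larger differences were seen for mural markers (51.3 and 202.5 CPM), striatal spiny neuron markers (103.7 and 349.3 CPM) and oligodendrocyte precursor markers (42.3 and 127 CPM). Among the lists that went the other way were the markers of committed oligodendrocyte precursors, at 362 and 315 CPM. Monocyte markers had 13 and 7 UMIs, T and NK cell markers 1 and 6, and neutrophil markers 0 in both, so infiltrating blood cells were at or near 0 by their defining markers in this class. The part of the RNA of other cell types in the results, beyond the subtraction given above, was not tested.

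In border macrophage-like nuclei, 26 of the 36 genes were measured, 12 were lower in WBRT-28d past the limit, 2 were higher, and the median was -0.55, beside 16.0% lower and 18.8% higher over 3696 genes and 35.5% lower and 5.95% higher over the 487 genes enriched in this class. The counts were small, since the class summed 54 and 88 nuclei. All 4 border macrophage genes were lower past the limit, with a median of -0.87, and with free RNA subtracted the median was -0.64 and Mrc1 came inside the limit at -0.45. With each nucleus gated by its own UMIs, Mrc1 was at -0.26 and F13a1 at -0.54, both inside the limit. Mrc1, the mannose receptor CD206 (chr2:14229392-14332057, plus strand), had 463 and 438 UMIs, or 3654 CPM (3329 to 4003) against 2281 CPM (2073 to 2505), a ratio of 0.624 (0.547 to 0.713). F13a1, the A chain of clotting factor XIII (chr13:36867178-37050244, minus strand), had 496 and 409 UMIs, or 3915 CPM (3578 to 4275) against 2130 CPM (1929 to 2347), a ratio of 0.544 (0.476 to 0.622). These levels had intervals that did not overlap. Cd163, the haemoglobin scavenger receptor, was at 537 CPM (417 to 680) and 297 CPM (225 to 385), a ratio of 0.553 (0.382 to 0.798). Pf4, the chemokine gene whose promoter is printed above, had 32 and 15 UMIs and the lowest ratio of the list, 0.309 (0.156 to 0.588).

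The macrophage genes shared with microglia were lower in the same nuclei. Fcrls was at 584 and 312 CPM (0.535, 0.374 to 0.762), Ly86 at 758 and 448 CPM (0.591, 0.437 to 0.799), and Trem2 rested on 24 and 14 UMIs (0.385, 0.184 to 0.775). Tyrobp (0.4999, 0.285 to 0.867), Cd68 (0.447, 0.244 to 0.803) and Gpr34 (0.346, 0.150 to 0.750) had intervals below 1 as well. The other genes past the limit on the low side were Siglech (0.462, 0.251 to 0.834) and Cd63 (0.660, 0.368 to 1.18), the latter with 26 UMIs in each library and an interval that included 1. Runx1 was at 1239 and 1005 CPM (0.811, 0.654 to 1.01), Spi1 at 268 and 266 CPM (0.990, 0.629 to 1.58), and Ptprc at 537 and 594 CPM (1.11, 0.812 to 1.52). The 2 genes higher past the limit were Irf8, with 7 and 23 UMIs (2.17, 0.901 to 5.98), and Selplg, with 13 and 33 UMIs (1.68, 0.859 to 3.47), and both intervals included 1. Of the microglia genes, P2ry12 was present here at 474 and 328 CPM (0.693, 0.479 to 1.004), while Tmem119 had 1 and 3 UMIs, Olfml3 1 and 4, and Sall1 0 and 1.

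Oligodendrocyte RNA differed more between the libraries in this class than in microglia-like nuclei. The 7 oligodendrocyte markers summed to 1216 CPM in ShamRT-28d and 3287 CPM in WBRT-28d. T and NK cell markers had 7 and 36 UMIs, with Cd8a and Nkg7 at 0 in both, monocyte markers had 4 and 28 UMIs with Ly6c2 at 0 in both, and neutrophil markers had 0 and 5. The summed markers of the class itself went from 4238 to 2776 CPM. The part of these other cells in the ratios was not tested.

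In microglia-like nuclei the border macrophage genes were nearly absent. Mrc1 had 2 UMIs in 2 nuclei of ShamRT-28d and 30 UMIs in 10 nuclei of WBRT-28d, or 2.01 and 21.2 CPM, a ratio of 10.5 (2.67 to 90.8), of which free RNA would give 72.8% and 15.8%. With doublets kept it was at 0.73 on the log2 scale (-0.52 to 2.14) and with all deposited barcodes at 0.72, against 3.39 here, so its size depended on which nuclei were removed. F13a1 had 0 UMIs in ShamRT-28d and 12 UMIs in 2 nuclei of WBRT-28d, at least 2.80-fold higher against a floor of 3 counts. Pf4 had 3 and 1 UMIs and Cd163 had 0 in both. The 8 markers of border macrophages summed to 320 and 291 CPM in the class. Ms4a7 and Folr2 were at 0 only in ShamRT-28d, Lyve1 and Clec10a only in WBRT-28d, and Cd209f in both libraries. The Mrc1 and F13a1 counts thus came from a few nuclei, and the other markers of that lineage were mixed.

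Across 9 classes of nuclei the listed genes marked the cells they are known for. Among genes with at least 20 UMIs in the library, the highest level lay in microglia-like nuclei for 21 genes in ShamRT-28d and 22 in WBRT-28d, and in border macrophage-like nuclei for 10 and 9. Selectivity for microglia differed by gene. Tmem119 was 15.02-fold and 10.4-fold above the next class in ShamRT-28d and WBRT-28d, Sall1 13.5-fold and 9.17-fold, Selplg 12.5-fold and 5.82-fold, and Siglech 5.28-fold and 7.95-fold, whereas P2ry12 was 2.72-fold and 2.35-fold above border macrophage-like nuclei. Fcrls (1.13-fold and 1.44-fold) and Spi1 (1.19-fold and 1.14-fold) were held by both classes at like levels. The border macrophage genes were the most selective of all, with Mrc1 455-fold above the next class in ShamRT-28d and 49.5-fold in WBRT-28d.

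A few disease-associated genes were highest outside the macrophages. Axl was highest in mural-like nuclei, at 192 and 88.6 CPM (0.461, 0.307 to 0.699), and stood at 57.4 and 42.7 CPM in astrocyte-like nuclei. The next class after mural-like was fibroblast-like at 70.6 CPM in ShamRT-28d and border macrophage-like at 67.7 CPM in WBRT-28d. Spp1 was highest in fibroblast-like nuclei, at 99.5 and 90.2 CPM (0.906, 0.647 to 1.27). Mertk, which astrocytes use for engulfment too, was at 912 and 970 CPM in astrocyte-like nuclei (1.06, 1.004 to 1.13), with microglia-like nuclei 2.46-fold and 2.10-fold above them. Cd63 was at 151 and 145 CPM in fibroblast-like and at 143 and 106 CPM in astrocyte-like nuclei, above its level in microglia-like nuclei.

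**Figure D4:**
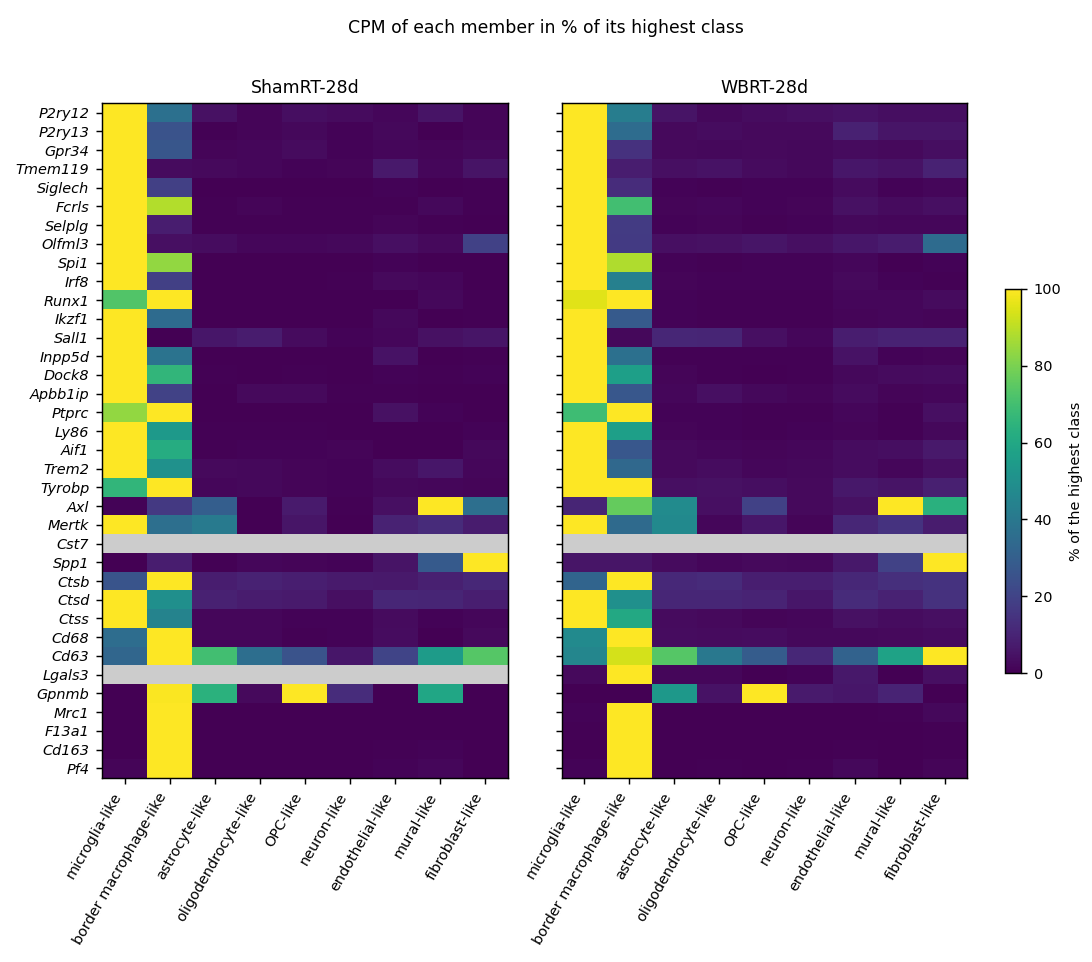
Level of each gene in 9 classes of nuclei in percent of its highest class, in ShamRT-28d (left) and WBRT-28d (right), with genes under 20 UMIs in a library in grey. Most genes peaked in microglia-like or border macrophage-like nuclei, while Axl peaked in mural-like and Spp1 in fibroblast-like nuclei.

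Apart from genes such as Mertk and Cd63, most listed genes stood at low levels in neuron-like, astrocyte-like and oligodendrocyte-like nuclei. In each of these classes more of them were higher than lower in WBRT-28d. In neuron-like nuclei, 34 were measured, 16 were higher past the limit and 1 was lower, beside 8.92% higher and 8.38% lower over 17010 genes. Dock8 was at 2.90 and 9.26 CPM there (3.20, 2.48 to 4.16), Inpp5d at 5.57 and 14.3 CPM (2.56, 2.12 to 3.10) and Mertk at 8.58 and 26.6 CPM (3.10, 2.68 to 3.599). P2ry12 did not share this direction, with 36.7 and 31.5 CPM (0.858, 0.785 to 0.938). These levels were a small part of those in microglia-like nuclei, and whether they were free RNA of microglia was not tested. In astrocyte-like nuclei 8 of 25 measured genes were higher and 1 was lower, beside 9.82% and 10.7% over all genes, and in oligodendrocyte-like nuclei 7 of 24 were higher and 0 were lower, beside 16.5% and 6.72%.

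The ratios also differed by the length of the gene. Nuclear RNA is rich in introns, and the genes of the list span from 0.949 kb for Pf4 to 224.7 kb for Runx1 in GENCODE M21. In microglia-like nuclei the 14 measured genes under 20 kb had a median of -0.52 on the log2 scale and the 14 longer ones -0.19. Enriched genes outside the list had -0.37 under 20 kb and -0.28 above, and all genes had -0.05 and 0.07. In border macrophage-like nuclei the 10 shorter genes had a median of -1.06 and the 16 longer ones -0.40. Most homeostatic genes are short and most of the transcription factors and signalling genes are long, so role and length cannot be told apart over this list. Apbb1ip, Ly86 and P2ry12 are long and were past the limit, and Aif1 and Cd63 are short and were not. Across the genes, Pearson's r between log span and log ratio was 0.33 and Spearman's rho was 0.37 over 28 genes in microglia-like nuclei, and 0.44 and 0.56 over 26 in border macrophage-like nuclei, as a description of genes that share libraries.

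**Figure D5:**
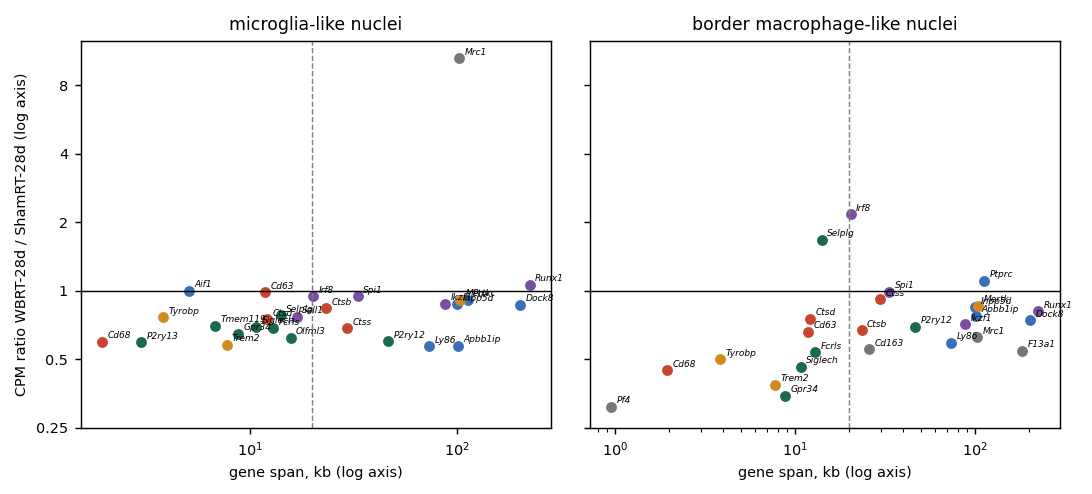
Ratio of WBRT-28d to ShamRT-28d level (log axis) against the span of each gene in kb (log axis) in microglia-like and border macrophage-like nuclei, with a dashed line at 20 kb. Shorter genes lay lower on average, with medians of -0.52 and -1.06 on the log2 scale against -0.19 and -0.40 for longer genes.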

How the data were processed

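Raw UMI counts per gene and nucleus were used as deposited. The authors counted them with Cell Ranger 5.0.0 on a custom mm10 pre-mRNA reference, with Seurat 3.0 and R 3.5.3 named besides in the notes of the submitters. The libraries held 11469 barcodes with 45511469 UMIs (ShamRT-28d) and 15986 with 68423922 UMIs (WBRT-28d).

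Nuclei had to show 500 genes or more and no more than 5% mitochondrial UMIs (11037 and 15668 barcodes). Doublet scores were ranked with Scrublet in scanpy 1.11.5, and the share expected from loading (9.18% and 12.8%) was removed, 1013 and 2004 nuclei. Nuclei were clustered in Seurat 5.3.0 (R 4.3.3) on 2000 variable genes, of which 20 listed genes were left out, with 30 principal components, 20 neighbours and resolution 0.8, giving 32 clusters. A non-neuronal cluster was named when its score for a marker list was at least 0.5 and at least 3 markers were found in 5% of its nuclei. Every other non-neuronal score outside the same lineage had to be under 0.35. Microglia and border macrophages counted as the same lineage. Neuron clusters needed a neuron score of at least 0.2, non-neuronal scores under 0.2 except for immature neurons, and at least 3 neuron markers. A name was dropped when the leading genes held more markers of other types than of its own. These limits were set after the clusters were seen, and 5 clusters stayed unnamed. UMIs were summed per class and library with Python 3.11.15, numpy 2.4.6, scipy 1.17.1 and pandas 2.3.3, with Poisson intervals for levels, conditional binomial intervals for ratios and a floor of 3 counts for zeros. Free RNA was scaled on 8 neuron genes, and the levels left after its subtraction were rescaled to the remaining RNA. Genes were placed with GENCODE M21 (GRCm38). Runx1, Ikzf1, Mertk and F13a1 overlap annotated antisense genes, and the use of strand in the deposited counts is not given in the sources used here.

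All listed genes were to be named, and of each further list the 3 with most UMIs and those past 1.5-fold with at least 50 UMIs, except for single genes not reported here. The genes and lists were chosen with earlier results of these data known. The scripts were tested on simulated data. Alternatives covered doublets, the nucleus gate, resolution, variable genes, UMI minimums, fold limits and free RNA. The comparison with genes enriched in a class, the nuclei without neuron-gene UMIs and the added unnamed clusters were chosen after seeing the data. Matplotlib 3.10.9 drew the figures.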

Additional observations from a re-analysis of the deposited data

Results flagged for a closer look

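Mrc1 went opposite ways in the 2 macrophage classes, with a WBRT-28d to ShamRT-28d ratio of 10.5 in microglia-like nuclei, on 2 and 30 UMIs, and of 0.624 in border macrophage-like nuclei. In microglia-like nuclei the log2 difference of Mrc1 was 3.39, but 0.73 with doublets kept (interval -0.52 to 2.14), 0.72 with all deposited barcodes and 1.33 after thinning. F13a1 did the same, at least 2.80-fold higher in microglia-like nuclei on 0 and 12 UMIs and at a ratio of 0.544 in border macrophage-like nuclei. Neither difference between the classes was tested, since each condition has 1 library.

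Counting only genes whose interval excluded 1 in both classes, of the listed genes lower in microglia-like nuclei 6 were higher in astrocyte-like nuclei (Siglech, Ikzf1, Inpp5d, Dock8, Apbb1ip and Mertk), 4 in oligodendrocyte-like nuclei (Tmem119, Inpp5d, Dock8 and Mertk) and 13 in neuron-like nuclei (Gpr34, Siglech, Fcrls, Selplg, Ikzf1, Sall1, Inpp5d, Dock8, Apbb1ip, Ly86, Mertk, Ctsd and Ctss), again untested.

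An unnamed cluster outside the comparisons held 7930 UMIs of the listed genes in WBRT-28d. It had 102 nuclei there (0.746%) and 0 of 10024 in ShamRT-28d, which allows a share of up to 0.0299%. Its nuclei held a median of 29617 UMIs (3877 to 143202), 7.49% of the library's kept UMIs, and UMIs of a median of 19 listed genes per nucleus. The listed genes summed to 1981 CPM there against 16410 CPM in microglia-like nuclei, and the lineage factors, homeostatic and signalling genes stood at 11.0%, 10.8% and 11.4% of their microglia-like level. Among listed genes with at least 20 UMIs in the cluster, single shares ran from 7.49% for P2ry13 to 274% for F13a1. Mrc1 stood at 129%, Axl at 76.2%, Cd63 at 41.05% and Ctsb at 33.4%. In microglia-like nuclei of WBRT-28d, F13a1, Mrc1 and Axl rested on 12, 30 and 13 UMIs. Cd163 had 17 UMIs in the cluster and 0 in those nuclei. Its leading genes included Runx1, Ikzf1, Dock8 and Tgfbr1, while neuron genes stood at 98.1% and myelin genes at 159% of their level in the whole library. With 1 library per condition, a cluster of WBRT-28d nuclei alone may be a feature of that library.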

How the results depend on the processing

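The homeostatic median stayed below 0 in 14 of 14 alternatives (-0.82 to -0.38), as did that of the disease-associated genes (-0.47 to -0.20) and of the border macrophage genes in their own class (-0.98 to -0.15). The other resolutions and UMI minimums are among these 14, and left the nuclei and genes of the homeostatic median unchanged, so they could not move it. The count of 8 listed genes lower past the limit became 2 with free RNA subtracted, 16 with the laxer of 2 other fold limits tried and 0 with the stricter, 2-fold one. The count of 1 higher (Mrc1) became 0 with the listed genes allowed among the variable genes, with a minimum of 50 UMIs and in nuclei without a neuron-gene UMI, and 2 with each nucleus gated by its own UMIs and with a minimum of 5 UMIs. Subtracting free RNA moved the homeostatic median to -0.38 and that of the further homeostatic genes to -0.14, and turned Ikzf1 (0.030), Inpp5d (0.019), Dock8 (0.0099) and Mertk (0.070), whose intervals had excluded 1, above 0 on the log2 scale, and likewise Spi1 (0.13), Irf8 (0.13), Ptprc (0.08), Aif1 (0.21) and Cd63 (0.09), whose intervals had included 1. Mrc1 in microglia-like nuclei ranged from 0.72 to 5.26 over 11 alternatives, and in border macrophage-like nuclei from -0.96 to -0.26. Nuclei without a neuron-gene UMI numbered only 116 and 33 among microglia-like nuclei, and gave -0.82 for the homeostatic genes, -0.15 for 2 border macrophage genes, and values above 0 for Sall1 (0.46), Tyrobp (0.028), Mertk (0.0036), Ctsb (0.13) and, in border macrophage-like nuclei, F13a1 (0.018). With unnamed clusters added the microglia-like shares were 6.18% (ShamRT-28d) and 6.29% (WBRT-28d), and 11 genes were lower. The rescaling within the subtraction raised every log2 difference of a class alike. Beyond the subtraction and the smaller numbers of nuclei or genes, the cause was not tested. Of the values that answer a comparison 100 stayed and 14 moved, and of those for single genes and lists 425 stayed, 34 moved and 9 whose interval had excluded 1 changed sign. Resolutions of 0.4 and 1.2 gave the same class, so their values are among those that stayed but add no further check. No paired analysis was possible because each condition has 1 library. Depth limits the genes with few UMIs (Axl, Spp1, Cst7, Lgals3, Gpnmb) and the border macrophage-like class, and the spread between mice is unknown.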
